A study of Mus musculus with 8 samples.

Results

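The genes described here encode the COMPASS-type complexes, which place methyl groups on lysine 4 of histone H3 (H3K4). They are 10 genes, namely Kmt2a, Kmt2b, Kmt2c, Kmt2d, Setd1a and Setd1b, which encode the catalytic subunits, and Wdr5, Ash2l, Rbbp5 and Dpy30, which encode the core subunits that all of the catalytic subunits bind. They were chosen by gene name, and where a name stood at several loci the locus with the highest mean was taken. All 10 had a locus in both tables, of 24281 named loci in the female table and 23944 in the male table, and 9 in each sex reached the mean of 1 FPKM (fragments per kilobase of transcript, scaled to the mapped fragments of the library) that was required for testing.

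RNA-Seq was performed on E15.5 mouse germ cells from ovaries and testes, with 4 libraries of each sex, 2 from control and 2 from Snf5 CKO embryos. Snf5 CKO embryos were Snf5 fx/Δ with TNAP-Cre, whereas the control libraries came from a mixture of Snf5 fx/+, Snf5 fx/Δ and Snf5 fx/+ with TNAP-Cre, so that a heterozygous loss of Snf5 was also present among controls. All embryos carried the Oct4-EGFP transgene, which was used for sorting. The comparison of Snf5 CKO with control within each sex asks what the loss of Snf5 (Smarcb1), which encodes a core protein of SWI/SNF chromatin remodelers, changes in fetal germ cells. By the paper's account, the expression profiles of Snf5 CKO germ cells of both sexes lay among those of normal germ cells at earlier stages. A delay in stage and other effects of the loss cannot be told apart here. TNAP-Cre is expressed from the Alpl gene and acts in primordial germ cells, and the study describes that some germ cells of Snf5 CKO embryos keep the protein. The female libraries and the male control libraries were pools of embryos. For male Snf5 CKO the study lists each collection of cells as from a single embryo, with 2 such collections under the first replicate. The number of pooled embryos thus differed between the male groups, and its part in the results was not tested. The sample labels name the C57BL/6 strain, whereas the methods describe a mixed background.

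Each COMPASS-type complex holds a single catalytic subunit on a shared core of WDR5, RBBP5, ASH2L and DPY30, which raises the activity of the enzyme. The SETD1 enzymes are known for trimethylation of H3K4 at the promoters of most active genes, KMT2A and KMT2B for promoters of developmental genes, and KMT2C and KMT2D for monomethylation at enhancers. In the germline, H3K4 trimethylation also marks the sites of meiotic recombination, where PRDM9 places it.

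Kmt2c had the largest change of the 10 genes in females. Wdr5 was the gene called in both sexes by the fit without replicate number as a block. For this reason the sequences just before the start sites of Kmt2c and Wdr5 are shown. They are the 250 bases before the RefSeq start in GRCm38.p6, read 5′ to 3′ on the strand of the gene, at chr5:25498784-25499033 on the minus strand for Kmt2c and chr2:27514897-27515146 on the plus strand for Wdr5. Capitals mark matches to the GC box, GGGGCGG or its reverse complement CCGCCCC.
Kmt2c: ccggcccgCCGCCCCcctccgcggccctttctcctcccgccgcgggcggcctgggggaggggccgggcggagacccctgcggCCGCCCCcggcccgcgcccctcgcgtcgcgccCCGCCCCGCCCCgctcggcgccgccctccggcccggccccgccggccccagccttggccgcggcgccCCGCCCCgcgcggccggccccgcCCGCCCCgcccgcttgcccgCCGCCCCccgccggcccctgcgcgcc
Wdr5: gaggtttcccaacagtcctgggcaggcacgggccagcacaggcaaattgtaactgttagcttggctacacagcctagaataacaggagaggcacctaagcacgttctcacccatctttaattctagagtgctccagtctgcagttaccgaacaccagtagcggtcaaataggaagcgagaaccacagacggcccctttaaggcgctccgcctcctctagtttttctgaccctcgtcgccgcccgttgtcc
The Kmt2c sequence held 7 GC boxes, some of which share bases, and 48 CpG dinucleotides. The Wdr5 sequence held no GC box and 12 CpG. Of 32851 promoters of this length in the table, 6889 held a GC box, the median number of CpG was 6 and the 90th percentile was 25. The other motifs searched on both strands were the CCAAT box (CCAAT, in 33.8% of promoters), the E box (CACGTG, 6.02%), the NRF1 motif (GCGCA and GCGC with any base between, 3.74%), the ETS motif (CCGGAAGT, 2.88%), the E2F motif (TTTCCCGC, TTTGGCGC, TTTCGCGC or TTTGCCGC, 1.86%), the CRE (TGACGTCA, 1.55%) and the YY1 motif (AAGATGGCG, 0.606%), and neither sequence held any of them. The Kmt2c window lay inside the assembled female locus, which reached upstream of the RefSeq start, so the data do not tell which start site was used.

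The targeted gene was checked first. Smarcb1 was at 23.4 and 22.3 FPKM in the female controls and at 4.24 and 2.47 in the female Snf5 CKO libraries, and male libraries had 141 and 167 FPKM in controls against 8.73 and 10.1 in the Snf5 CKO. Its log2 fold change was -2.48 in females (adjusted p = 0.00029) and -3.90 in males (adjusted p = 0.0022), in the direction of the labels. Fold changes are on the scale of log2(FPKM + 1), and p-values are those of limma with Benjamini-Hochberg adjustment over all 11642 female or 12368 male loci tested. Genes of cell types are counted below at an adjusted p under 0.05. At this threshold 34.8% of all loci were lower and 26.7% higher in female Snf5 CKO. In male Snf5 CKO 25.3% were lower and 20.9% higher. Of the 8 germ cell genes, 7 were tested in each sex, with 1 lower and 4 higher in female Snf5 CKO and 4 lower and 1 higher in male Snf5 CKO, and Tdrd6 was near 0 in every library. Their summed level was 1830 to 1854 FPKM in female controls and 1546 to 1592 in female Snf5 CKO, and 3260 to 3447 in male controls and 2100 to 2230 in male Snf5 CKO. Dazl lay between 606 and 997 FPKM and Ddx4 between 203 and 565 FPKM over the 8 libraries. In female controls Pou5f1 (Oct4), whose promoter drives the sorting transgene, was at 8.63 and 16.7 FPKM, Dnd1 at 4.94 and 8.81 and Nanos3 at 0.45 and 1.2. These genes all rose in female Snf5 CKO (log2 fold changes of 4.59, 4.39 and 2.82). In male Snf5 CKO Dnd1 (-1.78) and Nanos3 (-2.16) fell, and Pou5f1 was at 0.60 (adjusted p = 0.094). Kit rose in both sexes (2.02 in females and 1.70 in males), whereas Mael fell in both sexes (-1.94 in females and -2.97 in males). Genes of the supporting cells of the gonad were higher in Snf5 CKO libraries, with 8 of 9 tested genes higher and 1 lower in females and 9 of 10 higher and 0 lower in males. Their summed level was 14.0 to 18.6 FPKM in female controls and 37.8 to 39.6 in female Snf5 CKO, and 47.9 to 67.2 in male controls and 283 to 326 in male Snf5 CKO, with the Sertoli markers Sox9, Amh and Dhh near 0 in females and Foxl2 near 0 in males. Leydig cell genes were lower in male Snf5 CKO for 3 of 5 tested, with summed levels of 58.2 to 85.7 and 15.1 to 19.2 FPKM, and stromal genes for 3 of 3. In females 1 of 2 tested Leydig loci was higher (Insl3 merged with Jak3, 1.18) and 1 of 2 stromal genes was lower (Col1a1, -1.11). Of the endothelial and blood genes, 1 of 2 tested was higher in females (Pecam1, 2.23) and 1 of 4 was lower in males (Tek, -1.16). The other locus tested in females, Hba-a1 merged with Hba-a2, was at -1.22 (adjusted p = 0.39). Cdh5 and Kdr were lower without overlap in female Snf5 CKO but under 1 FPKM in every female library, as was Ptprc. Tek overlapped between the female groups. The part of such cells and of the germ cell genes in the results on the COMPASS genes was not tested. Loci without a gene name held between 5.46% and 42.1% of the summed FPKM of a library. In males this share followed the replicate number, at 5.46% and 6.56% in replicate 1 and 35.4% and 42.1% in replicate 2. In females it differed between the groups without overlap, at 36.7% and 35.3% in controls and 9.94% and 28.2% in the Snf5 CKO. The part of this share in the results was not tested. Without counts in the tables the sequencing depth is unknown. The steps between low values placed the depth of the other libraries at 1.24 to 2.45 times that of control replicate 1 in females and 0.953 to 1.46 times in males. Only 11.2% to 36.1% of the low loci in those libraries lay at the most common step, so these depths are rough.

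In female germ cells, the genes of the COMPASS-type complexes changed in both directions. At an adjusted p under 0.05, Kmt2a, Kmt2b, Kmt2c and Wdr5 fell and Ash2l, Dpy30, Kmt2d and the locus that holds Setd1a rose in the Snf5 CKO, that is 4 lower and 4 higher of 9 tested. Over all loci tested, 34.8% were lower and 26.7% were higher. When an absolute log2 fold change of 1 or more was required too, 1 gene (Kmt2c) was lower and 2 (Ash2l and Dpy30) were higher, against 21.8% and 17.2% of all loci. At an unadjusted p under 0.05 the counts were again 4 and 4, against 37.2% and 28.8%. The libraries of both groups did not overlap for these 8 genes, with 4 below and 4 above, while 45.3% of all loci lay below and 36.2% above. In bulk libraries, fewer cells of a type and less RNA per cell cannot be told apart.

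**Figure D1:**
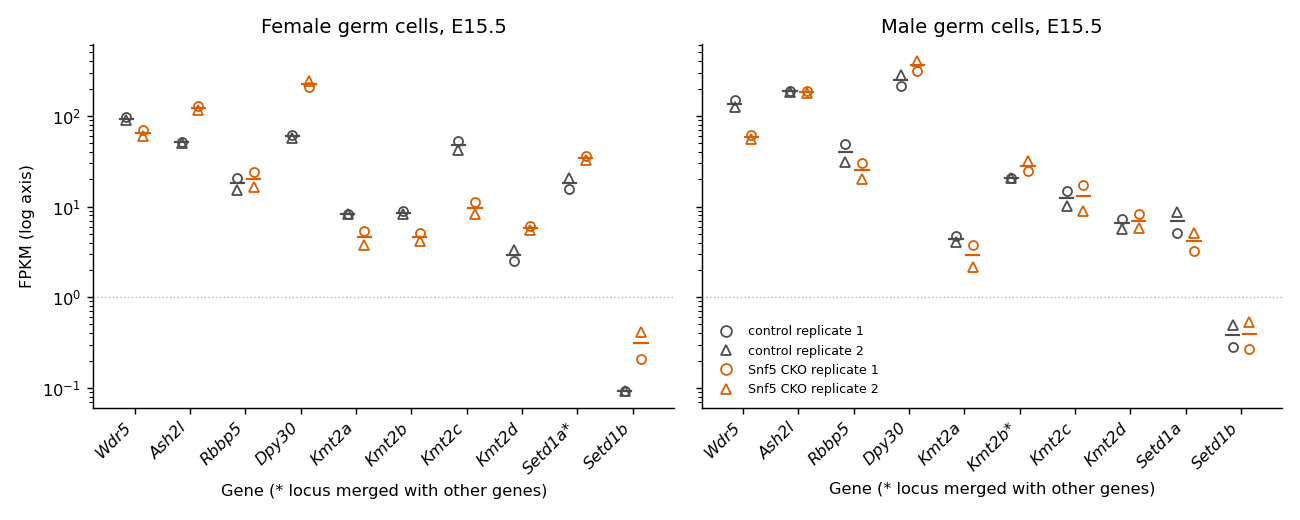
Levels of the 10 genes in each library, in FPKM on a log axis, for female (left) and male (right) germ cells. Circles are replicate 1, triangles replicate 2, and short lines are group means (n = 2). The dotted line marks the mean of 1 FPKM needed for testing, and an asterisk marks a locus merged with other genes. In females Kmt2c lies at 42.2 and 52.4 FPKM in controls and at 8.21 and 11.1 in Snf5 CKO, and in both sexes Setd1b lies under 1 FPKM in every library.

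Among the core subunits, Dpy30, which binds the end of ASH2L and is needed for efficient methylation, showed the largest rise. It was at 61.4 and 57.4 FPKM in female controls and at 208 and 241 in female Snf5 CKO. The groups did not overlap, and the means were 59.4 ± 2.83 and 224 ± 23.4 FPKM (SD, n = 2 each), with a log2 fold change of 1.89 (± 0.18, where ± SE is the standard error of the fit, adjusted p = 0.00028). Ash2l, which encodes the subunit that activates the enzyme together with RBBP5, was at 51.5 and 50.4 FPKM in controls and at 127 and 117 in the Snf5 CKO, a log2 fold change of 1.24 (± 0.17 SE, adjusted p = 0.00096). The Ash2l values of the Snf5 CKO were thus about 2.39 times those of controls by the ratio of means, and they varied little between replicates.

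Wdr5, which encodes the scaffold that docks the catalytic subunit, moved the other way. It was at 96.8 and 89.4 FPKM in female controls and at 69.4 and 59.4 in female Snf5 CKO, with a log2 fold change of -0.53 (± 0.18 SE, adjusted p = 0.037). The groups did not overlap, but this was the smallest called change of the 8. The call was lost with median-of-ratios scaling (-0.35, adjusted p = 0.0998), with each library scaled to the same sum over named loci (-0.51, adjusted p = 0.12), and when any 1 of the 4 female libraries was left out (adjusted p between 0.072 and 0.23). Rbbp5, the partner of ASH2L, was at 20.6 and 15.4 FPKM in controls and at 23.8 and 16.3 in the Snf5 CKO. These ranges overlapped, and the log2 fold change of 0.14 had a 95% confidence interval of -0.44 to 0.72 (adjusted p = 0.64).

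The unequal changes of the core subunits were also seen as ratios within a library, which do not depend on how libraries are scaled. Dpy30 was at 0.635 and 0.642 times the level of Wdr5 in female controls and at 2.99 and 4.05 times in female Snf5 CKO, a 5.45-fold higher ratio. In males the same ratio was 1.42 and 2.25 in controls and 5.09 and 7.37 in the Snf5 CKO, a 3.42-fold higher ratio. In neither sex did the groups overlap, and with 2 libraries against 2 the exact permutation test gives a two-sided p of 0.333 at the smallest, which was its value here.
The ratio of Ash2l to Wdr5 was 0.532 and 0.564 in female controls against 1.83 and 1.97 in female Snf5 CKO, and 1.28 and 1.46 in male controls against 3.05 and 3.23 in male Snf5 CKO. The ratio of Rbbp5 to Wdr5 was 1.60-fold higher in the female and 1.48-fold higher in the male Snf5 CKO, with no overlap of groups in either sex. These ratios to Wdr5 were chosen after the values had been seen. Since Wdr5 was lower in Snf5 CKO libraries of both sexes, a rise of each ratio follows in part from the shared denominator.

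Among the catalytic subunits of female germ cells, Kmt2c changed most. Kmt2c encodes the enzyme, also called MLL3, of an enhancer-directed complex. It was at 52.4 and 42.2 FPKM in controls and at 11.1 and 8.21 in the Snf5 CKO, which is 4.90-fold lower by the ratio of means. The log2 fold change was -2.19 (± 0.21 SE, adjusted p = 0.00029), and within replicate 1 and replicate 2 it was -2.14 and -2.23. In controls Kmt2c was the most abundant catalytic subunit, near the level of Ash2l, and in the Snf5 CKO it was below Rbbp5 in the order of levels. The confidence bounds that Cufflinks gives for each value were wide, from 6.98 to 97.9 FPKM for Kmt2c in control replicate 1 and from 2.45 to 19.7 in Snf5 CKO replicate 1. The bounds of control and Snf5 CKO were apart for 0 of the 10 genes in either sex, so the calls rest on the spread between replicates.

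Kmt2d, which encodes the paralog of KMT2C in the same kind of complex, moved in the opposite direction. It was at 2.51 and 3.35 FPKM in female controls and at 6.03 and 5.54 in female Snf5 CKO, with no overlap and a log2 fold change of 0.80 (± 0.20 SE, adjusted p = 0.013). The call of Kmt2d was lost without control replicate 1 (0.64, adjusted p = 0.071) and without Snf5 CKO replicate 1 (0.74, adjusted p = 0.055). The ratio of Kmt2c to Kmt2d was 20.9 and 12.6 in female controls and 1.84 and 1.48 in female Snf5 CKO, a 9.82-fold lower ratio (exact permutation test, two-sided p = 0.333, the smallest possible). In males the ratio was 2.01 and 1.78 in controls and 2.13 and 1.54 in the Snf5 CKO, and the groups overlapped (exact permutation p = 1). Female Snf5 CKO values thus lay close to those of both male groups. The tables of females and males were normalized separately, and no test was made between them. Of the summed FPKM of the 4 KMT2 genes, Kmt2c made up 72.7% and 68.1% in female controls and 40.1% and 38.0% in female Snf5 CKO, and Kmt2d 3.49% and 5.41% against 21.8% and 25.6%.

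**Figure D2:**
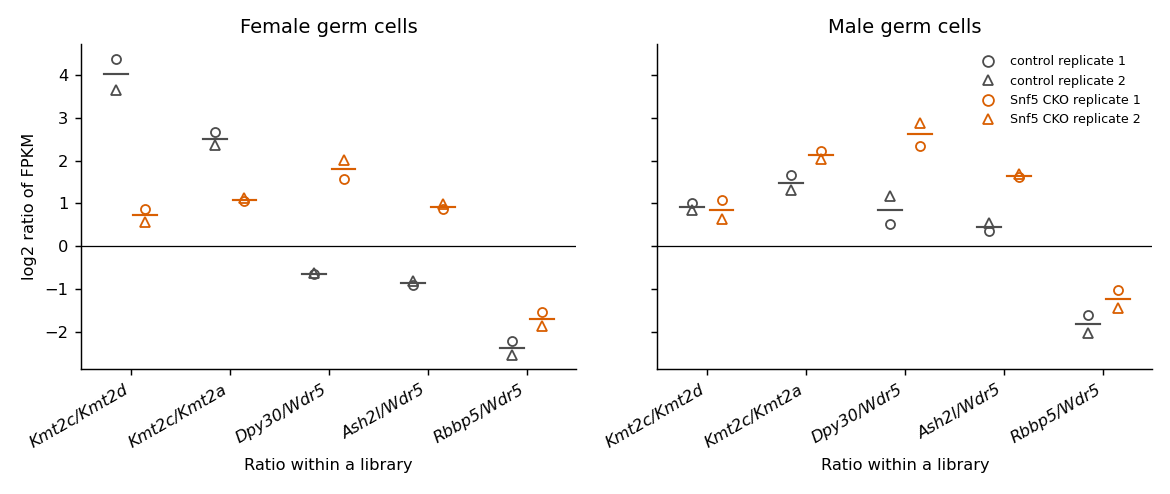
Ratios between COMPASS genes within each library, as log2 ratio of FPKM, for female (left) and male (right) germ cells. Circles are replicate 1, triangles replicate 2, and short lines are group means (n = 2). The ratio of Kmt2c to Kmt2d falls from 20.9 and 12.6 to 1.84 and 1.48 (on the linear scale) in females and overlaps between groups in males, while ratios to Wdr5 are higher in the Snf5 CKO of both sexes.

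Kmt2a and Kmt2b, which encode the menin-associated enzymes MLL1 and MLL2, fell together in females. Kmt2a was at 8.28 and 8.17 FPKM in controls and at 5.37 and 3.75 in the Snf5 CKO, a log2 fold change of -0.75 (± 0.21 SE, adjusted p = 0.021). Kmt2b was at 8.89 and 8.19 FPKM in controls and at 5.17 and 4.12 in the Snf5 CKO, a log2 fold change of -0.76 (± 0.20 SE, adjusted p = 0.014). Neither gene overlapped between groups, and the ratio of Kmt2a to Kmt2b stayed near 1, at 0.931 and 0.997 in controls and 1.04 and 0.910 in the Snf5 CKO (exact permutation p = 1). Without control replicate 1 the adjusted p was 0.054 for Kmt2a and 0.055 for Kmt2b, and without Snf5 CKO replicate 2 it was 0.17 and 0.11.

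Setd1a could not be measured alone in females, since its locus is merged with Fbxl19 and Orai3. The merged locus was at 15.4 and 20.7 FPKM in controls and at 36.3 and 32.8 in the Snf5 CKO (log2 fold change 0.91 ± 0.20 SE, adjusted p = 0.0068), and the share of Setd1a in it is unknown. Setd1b, its paralog, was at 0.0923 and 0.0929 FPKM in female controls and at 0.210 and 0.412 in female Snf5 CKO. The groups did not overlap, but at these levels, under the minimum for testing, no fold change was fitted. In male germ cells Setd1b was also low, at 0.279 and 0.487 FPKM in controls and 0.266 and 0.528 in the Snf5 CKO, where the groups overlapped.

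Transcript length moved with the change in females. Over all tested loci, the median log2 fold change was 0.21 for genes whose longest transcript is under 2000 bases, -0.05 from 2000 to 4000, -0.37 from 4000 to 8000, -0.66 from 8000 to 12000 and -0.81 at 12000 or more (n = 103). In males the corresponding medians were 0.07, -0.06, -0.14, -0.29 and -0.31. The KMT2 transcripts are among the longest, with 14967 bases for Kmt2c, 16470 for Kmt2a, 19823 for Kmt2d and 8469 for Kmt2b. With the trend on length removed, Kmt2c was still lower in females (-1.32, adjusted p = 0.00052) and Kmt2d was higher by more (1.79, adjusted p = 0.00097), whereas Kmt2b was at -0.18 (adjusted p = 0.32) and Kmt2a at 0.16 with the sign reversed (adjusted p = 0.41). Ash2l and Dpy30 stayed higher (1.40 and 1.68) and Wdr5 lower (-0.49, adjusted p = 0.022). The part of length in the results was not tested otherwise.

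**Figure D3:**
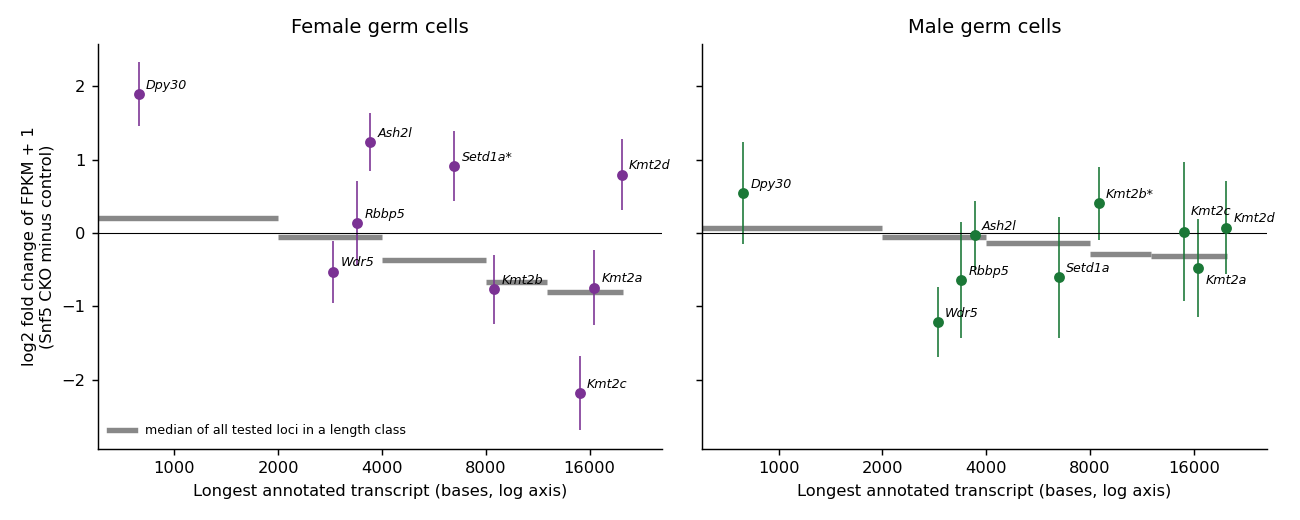
Log2 fold change of FPKM + 1 (Snf5 CKO minus control) against the length of the longest annotated transcript, in bases on a log axis, for female (left) and male (right) germ cells. Points are the COMPASS genes with 95% confidence intervals (limma, n = 2 against 2), grey bars are medians of all tested loci in a length class, and an asterisk marks a merged locus. In females the medians go from 0.21 to -0.81 with length, with Kmt2a and Kmt2b near them, Kmt2c at -2.19 below and Kmt2d at 0.80 above.

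In male germ cells, a single gene, Wdr5, passed the test in the fit without a block. With replicate number as a block 4 were lower and 2 higher of 9 tested, beside 41.1% and 35.0% of all loci. Wdr5 was at 148 and 125 FPKM in controls and at 61.4 and 55.3 in the Snf5 CKO, 2.34-fold lower by the ratio of means. The groups were well apart, with a log2 fold change of -1.21 (± 0.19 SE, adjusted p = 0.0070). In the limma fit without a block, 1 gene was thus lower and 0 were higher of 9 tested. Over all loci, 25.3% were lower and 20.9% higher. The counts were the same when an absolute log2 fold change of 1 or more was required, against 17.5% and 14.3% of all loci, and at an unadjusted p under 0.05, against 29.8% and 25.0%. The groups did not overlap for 6 of these genes, with 4 below and 2 above, while 39.9% and 34.5% of all loci did so. Of all male calls 45.3% were higher, and 35.1% with each library scaled to the same sum over named loci.

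The other male core subunits did not pass the test without a block, and with replicate number as a block Dpy30 (adjusted p = 0.00033) and Rbbp5 (adjusted p = 0.00073) did. Dpy30 was at 211 and 282 FPKM in male controls and at 312 and 407 in male Snf5 CKO, without overlap, and its log2 fold change of 0.55 had a standard error of 0.27 (adjusted p = 0.16). Ash2l was at 190 and 183 FPKM in controls and at 187 and 179 in the Snf5 CKO, with a log2 fold change of -0.03 and a 95% confidence interval of -0.50 to 0.44 (adjusted p = 0.92). This interval lies below the female value of 1.24, but the difference between the sexes was not tested. Rbbp5 was at 48.8 and 30.9 FPKM in controls and at 29.9 and 20.1 in the Snf5 CKO, a log2 fold change of -0.64 (± 0.31 SE, adjusted p = 0.15), with the higher Snf5 CKO value just under the lower control value.

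Of the male catalytic subunits, Kmt2c was at 14.8 and 10.1 FPKM in controls and at 17.4 and 8.84 in the Snf5 CKO, and the replicates of each group lay further apart than the group means. Its log2 fold change was 0.02, with a 95% confidence interval of -0.92 to 0.96 (adjusted p = 0.97). Kmt2d was at 7.34 and 5.69 FPKM in controls and at 8.19 and 5.73 in the Snf5 CKO, again with overlap (0.07, interval -0.56 to 0.71, adjusted p = 0.83). Both enhancer-directed enzymes thus overlapped between the male groups. Kmt2a was at 4.69 and 4.10 FPKM in controls and at 3.75 and 2.16 in the Snf5 CKO, without overlap (-0.48 ± 0.26 SE, adjusted p = 0.19). Setd1a, which had a locus of its own in the male table, was at 5.16 and 8.74 FPKM in controls and at 3.24 and 5.12 in the Snf5 CKO, where the highest Snf5 CKO value was just below the lowest control value (-0.60 ± 0.32 SE, adjusted p = 0.18). Kmt2b was merged with Zbtb32 in males, and this locus was at 20.8 FPKM in both controls and at 24.4 and 31.7 in the Snf5 CKO (0.41 ± 0.19 SE, adjusted p = 0.15).

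Replicate numbers were taken as a shared sequencing batch, since the sample labels give the replicate 1 libraries a common flow cell and lane and the replicate 2 files another style of name, and the deviations of same-numbered male libraries had a correlation of 0.595 across loci. When replicate number was a block, 4 male genes were lower (Wdr5, Rbbp5 with an adjusted p of 0.00073, Setd1a with 0.0073 and Kmt2a with 0.043) and 2 loci were higher (Dpy30 with 0.00033 and the merged Kmt2b locus with 0.019), while 41.1% of all male loci were lower and 35.0% higher. Within replicates 1 and 2 the male log2 fold change was -1.26 and -1.17 for Wdr5, 0.57 and 0.53 for Dpy30 and -0.69 and -0.59 for Rbbp5. For Kmt2c it was 0.22 and -0.18, so the replicates differed in sign. In females the block left 4 genes lower and 4 higher, beside 42.8% and 33.8% of all loci.

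**Figure D4:**
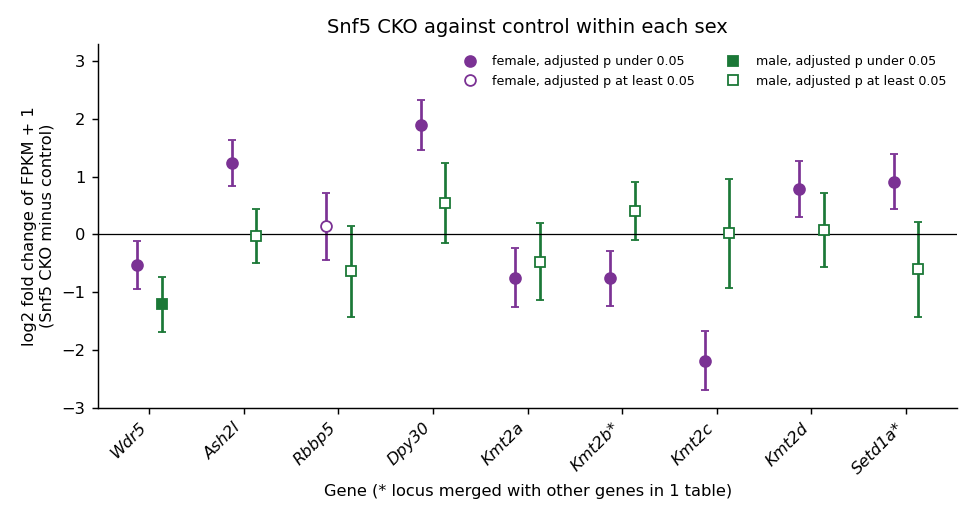
Log2 fold change of FPKM + 1 (Snf5 CKO minus control) of the 9 tested COMPASS genes in female (circles) and male (squares) germ cells, from the fit without a block. Bars are 95% confidence intervals of limma (n = 2 against 2), filled symbols have an adjusted p under 0.05, and an asterisk marks a gene whose locus is merged with others in either table. 8 genes are filled in females and Wdr5 alone in males, at -1.21.

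The order of levels among the genes differed between groups, as FPKM per gene, which accounts for transcript length. In female controls Wdr5 stood first at 93.1 FPKM, before Dpy30 (59.4) and Ash2l (51.0), and Ash2l and Kmt2c (47.3) overlapped. In female Snf5 CKO the order was Dpy30 (224), Ash2l (122) and Wdr5 (64.4), with no overlap between neighbours. The order in male controls was also Dpy30 (246), Ash2l (186) and Wdr5 (137), and in male Snf5 CKO it was Dpy30 (360), Ash2l (183) and Wdr5 (58.3), again with no overlap between neighbours. The lowest place was that of Setd1b in all 4 groups.

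The genes whose pattern over the 4 female libraries was nearest to that of Kmt2c were Tbc1d1, Phf8 and Tdrd7, at Euclidean distances of 0.027, 0.034 and 0.055 between log2(FPKM + 1) values centred on each gene's mean. Phf8 was at 122 and 98.4 FPKM in controls and at 26.4 and 20.5 in the Snf5 CKO. For male Wdr5, the nearest were Tfip11, 4833420G17Rik and Snx1, at distances of 0.042, 0.048 and 0.052.

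The other genes of H3K4 methylation were examined in 4 lists. Of 12 further subunits of the complexes, 6 fell and 2 rose in females, where 34.8% of all loci were lower and 26.7% higher, with a median log2 fold change of -0.28 beside -0.14 over all loci tested. Kdm6a, which encodes the H3K27 demethylase UTX of the KMT2C and KMT2D complexes, was at 78.7 and 53.4 FPKM in female controls and at 20.1 and 16.4 in female Snf5 CKO (-1.78, adjusted p = 0.00085). Hcfc2 (-1.54) and Bod1l (-1.06) also fell by over 1, though with the trend on transcript length removed Bod1l was at -0.37 (adjusted p = 0.053), and Psip1, which encodes the chromatin tether LEDGF of the menin complexes, rose (1.01). In males 3 fell and 5 rose, where 25.3% of all loci were lower and 20.9% higher, with a median of 0.56 beside -0.07. Paxip1 and Pagr1a, whose products belong to the KMT2C and KMT2D complexes, rose (1.33 and 0.83), whereas of the genes for subunits of the SETD1 complexes Wdr82 rose (1.28) and Bod1 (-1.21) and Cxxc1 (-1.09) fell. Men1, which encodes menin, fell in females (-0.60, adjusted p = 0.027) and rose in males (0.81, adjusted p = 0.027).

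Of the 6 H3K4 demethylase genes, 2 of 5 tested fell and 0 rose in females and 3 of 6 fell and 0 rose in males, beside the same shares of all loci (34.8% and 26.7% in females, 25.3% and 20.9% in males). Kdm5a was at 106 and 85.6 FPKM in female controls and at 33.5 and 25.3 in female Snf5 CKO (-1.68, adjusted p = 0.00072). Kdm5b fell in both sexes, by 1.60 in females and by 1.55 in males on the log2 scale. With the trend on length removed Kdm5a and Kdm5b were at -0.97 and -1.0 in females, with adjusted p of 0.0016 and 0.0025. In males Kdm1b, which encodes the demethylase LSD2, was at 59.6 and 59.1 FPKM in controls and at 9.86 and 8.02 in the Snf5 CKO (-2.61, adjusted p = 0.0022), and Kdm1a fell as well (-1.15, adjusted p = 0.020). The median of the demethylases was -0.51 in females and -0.88 in males. With the replicate block 3 demethylase genes were lower and 1 was higher in females, beside 42.8% and 33.8% of all loci with that block. In males 4 were lower and 1 was higher, beside 41.1% and 35.0%.

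Of the H3K4 methyltransferases outside these complexes, Prdm9 was at 223 and 153 FPKM in female controls and at 9.99 and 11.5 in female Snf5 CKO (-3.99), Smyd3 fell (-1.56) and Smyd2 rose (0.83), so that 2 fell and 1 rose of 3 tested. In males none of 4 tested passed, with values from -0.31 to 0.51. With the replicate block Smyd2 was higher (0.51, adjusted p = 0.0012), beside 35.0% of all male loci with that block. The shares of lower and higher loci over all those tested were 34.8% and 26.7% in females and 25.3% and 20.9% in males, for this list and the next. Of 13 genes for proteins that bind methylated H3K4, 3 fell and 3 rose in females and 5 fell and 1 rose in males. Phf8, which encodes a protein that binds trimethylated H3K4 and demethylates other lysines, fell in both sexes (-2.19 and -1.29), Taf3, which encodes a reader subunit of TFIID, fell in females (-1.35), and Ing4 and Chd1 rose in females (2.43 and 1.46). Phf13 was at 525 and 385 FPKM in male controls and at 141 and 112 in male Snf5 CKO (-1.83, adjusted p = 0.0059). Their medians were -0.11 in females and -0.26 in males.

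The counts of these lists depended on single libraries. Without female control replicate 1 or female Snf5 CKO replicate 2, 3 further subunits were lower in place of 6, and without female control replicate 2 or female Snf5 CKO replicate 1, 1 was higher in place of 2. Without male control replicate 2 none of the further subunits was higher in place of 5, and without any 1 of the other male libraries 3 were. With each library scaled to the same sum over named loci none of them was higher in males. Without male control replicate 1, 1 demethylase gene was lower in place of 3 and 1 gene for a binder of methylated H3K4 was lower in place of 5, while 2 such binder genes were lower without male Snf5 CKO replicate 2 and 3 without male control replicate 2. With the replicate block 3 further subunits were lower and 8 higher in males, beside 41.1% and 35.0% of all male loci with that block. Of the binders, 6 were lower and 4 higher in females, beside 42.8% and 33.8% of all female loci. In males 7 binders were lower and 4 higher.

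**Figure D5:**
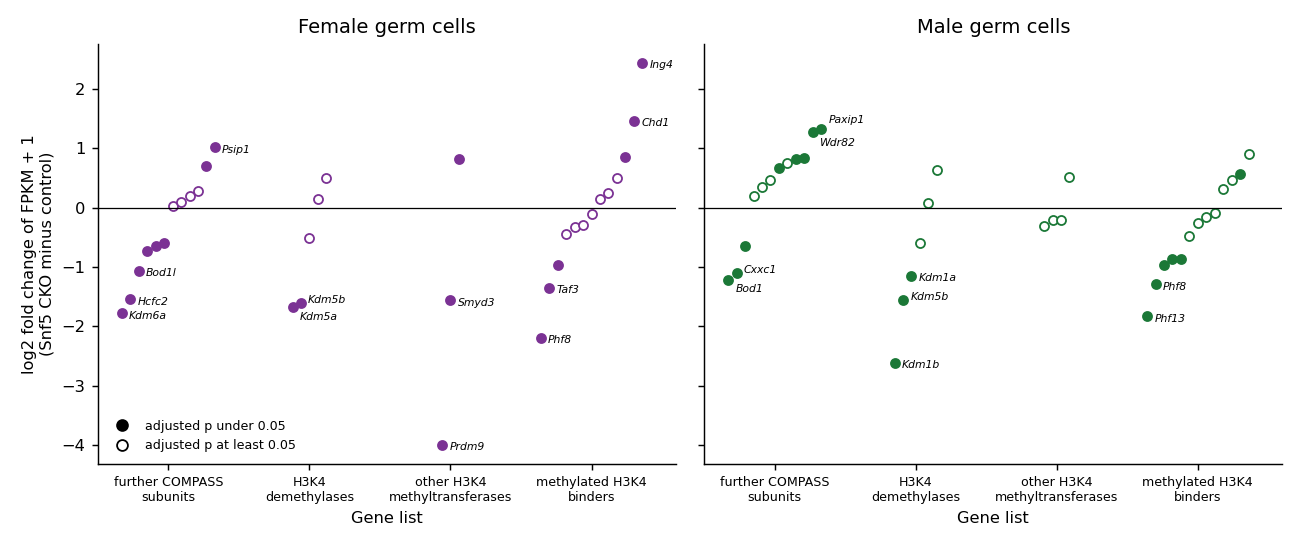
Log2 fold change of FPKM + 1 (Snf5 CKO minus control) of the tested genes of 4 related lists, for female (left) and male (right) germ cells. Each point is a gene, filled where the adjusted p of limma is under 0.05 (n = 2 against 2), and genes past a log2 fold change of 1 in either direction are named. Prdm9 lies lowest in females at -3.99 and Kdm1b lowest in males at -2.61.

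The annotation limits some of these values. In mm10, the female loci were chr5:25271792-25499601 for Kmt2c, chr15:98831588-98873174 for Kmt2d, chr2:27515147-27536538 for Wdr5, chr8:25816001-25847905 for Ash2l and chr17:74299474-74323944 for Dpy30. The library kit does not keep the strand, and annotated exons of Kmt2a and Kmt2c share 378 and 274 bases with an antisense gene (AC061963.1 and Gm42585), while Setd1a shares 3523 bases with Gm49388 on the same strand, so reads from these bases cannot be told apart. In the female table Zbtb32 had a locus of its own, at 12.9 and 16.9 FPKM in controls and 19.0 and 22.4 in the Snf5 CKO, and in the male table Fbxl19 and Orai3 had a locus apart from Setd1a, at 57.6 and 55.6 FPKM in controls and 33.3 and 32.9 in the Snf5 CKO. The values of Kmt2b and Setd1a in females and in males are therefore not of the same unit of annotation.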

How the data were processed

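Germ cells of 8 libraries were sorted by Oct4-EGFP, and cDNA was amplified with a SMART-Seq kit and tagmented. The authors mapped reads to mm10 and deposited, for each sex, a table of FPKM values with confidence bounds and a status for each locus. The submitters' processing notes name TopHat2 2.2.1 and Cuffdiff 2.1.1, whereas the paper's methods give 2.1.1 for TopHat and 2.2.1 for Cufflinks. The gene annotation and the scaling of libraries are not given in the sources used here. Scaling and amplification bias can shift all loci of a library, and FPKM values hold no counts, so no count test was possible.

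The 10 genes and the related lists were chosen with earlier results of these data known. Female and male tables were fitted separately, using limma 3.58.1 under R 4.3.3 (lmFit, eBayes with trend) on log2(FPKM + 1), over named loci with a mean of at least 1 FPKM, with a threshold of 0.05 on the Benjamini-Hochberg adjusted p. The scripts were tested on simulated data. All 10 genes are named. Of the related lists, genes past the threshold and a log2 fold change of 1 in either sex are named, up to 6 per list, with further genes chosen after their values were seen (Men1, Pagr1a, Bod1l, Psip1, Smyd2, Ncoa6, Dido1 and Ing2). The 3 nearest genes of the most changed gene of each sex are named. Transcript lengths came from GENCODE M21. RefSeq promoters matched 7 of the 10 genes. Alternatives were other scalings, a pseudocount of 0.1, testing without a filter or from a mean of 5 FPKM, no trend, the replicate block, exclusion of loci with any status but OK, summed loci, a removed length trend and each library left out.

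The sample labels give all replicate 1 libraries the same flow cell and lane, and the raw files of replicate 2 have names of another style, so the number was taken as a shared batch. Deviations of same-numbered libraries had a correlation across loci of 0.504 in females and 0.595 in males. The methods call the 2 libraries of a group biological duplicates.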

Additional observations from a re-analysis of the deposited data

Results flagged for a closer look

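These results are given because both Snf5 CKO libraries of 1 sex lay above both controls and both Snf5 CKO libraries of the other sex lay below both controls. The difference between the sexes was not tested in any of them, since each sex had its own table. Of all tested loci, 45.3% lay below both controls and 36.2% above in females, and 39.9% and 34.5% in males. The share of loci with opposite directions in the 2 sexes was not counted. Among the COMPASS genes, Kmt2b had a log2 fold change of -0.76 in females and 0.41 in males, where its locus holds Zbtb32 too, and Setd1a had 0.91 in females, where its locus holds Fbxl19 and Orai3 too, and -0.60 in males. Among further subunits, Men1 was at -0.60 in females and 0.81 in males, Ncoa6 at -0.64 and 0.75, Bod1l at -1.06 and 0.46 and Bod1 at 0.10 and -1.21. The demethylase gene Kdm1a was at 0.50 in females and -1.15 in males. Of the genes for binders of methylated H3K4, Dido1 was at -0.33 in females and 0.90 in males and Ing2 at 0.14 and -0.97. In the limma fit without a block, Men1 alone had an adjusted p under 0.05 in both sexes. It was higher in females for Bod1 (0.61), Kdm1a (0.069), Dido1 (0.15) and Ing2 (0.49). In males it was higher for Kmt2b (0.15), Setd1a (0.18), Ncoa6 (0.090), Bod1l (0.12) and Dido1 (0.078). With the trend on transcript length removed, the female values were -0.18 for Kmt2b, -0.37 for Bod1l, -0.15 for Ncoa6, -0.078 for Bod1 and 0.26 for Dido1, so that Bod1 and Dido1 changed sign.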

How the results depend on the processing

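The calls of Kmt2c, Ash2l and Dpy30 in females and of Wdr5 in males passed the threshold in all 15 settings. The female count of 4 lower genes became 1 without a filter on low FPKM, 2 with the same sum over named loci and 2 with the length trend removed, and the 4 higher became 2 without a filter, where 24281 loci are tested. Leaving out a library gave 1 to 3 lower and 3 to 4 higher in females, and 1 lower and 0 higher in males. With the replicate block 4 male genes were lower and 2 higher, and with the length trend removed 1 was higher (Kmt2d, 0.50, adjusted p = 0.039). With a mean of at least 5 FPKM female Kmt2d was not tested. The block changed no other call of the 10 genes. Signs reversed for Kmt2a in females with the length trend removed (0.16). For Ash2l in males the sign reversed with median of ratios (0.14) and with the length trend removed (0.063). For male Kmt2c (-0.15) and Kmt2d (-0.088) it reversed with the same sum. The female difference (Snf5 CKO minus control) in the log2 ratio of Setd1a to Setd1b went from -0.72 to 0.65 with 1 added to FPKM. In this ratio Setd1a is the merged locus, and Setd1b was under 1 FPKM in every library. Leaving out a library gave ranges of -0.12 to 0.40 for female Rbbp5 and -0.43 to 0.47 for male Kmt2c. The ranges were -0.15 to 0.30 for male Kmt2d and -0.061 to 0.0082 for male Ash2l. The difference of Snf5 CKO minus control in the female log2 ratio of Kmt2a to Kmt2b ranged from -0.082 to 0.11. The same difference for Kmt2c to Kmt2d in males ranged from -0.30 to 0.17. The cause was not tested. Median-of-ratios scaling moved the median of all loci by 0.15 in females and 0.14 in males, the same sum by -0.17 in males and the length trend by 0.13 in females. With 2 libraries a group and no counts, the depth behind a value under 1 FPKM, such as Setd1b, is unknown.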
